A study of Syntrichia ruralis with 8 samples.

Results

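Among the clones on a cDNA array of the desiccation-tolerant moss Tortula ruralis (also named Syntrichia ruralis), 105 had no annotated gene and differed between slow drying and rehydration. They are 105 of 768 clones on the array and of 559 clones annotated as unknown. Of these, 57 were higher in slow-dried gametophytes, the leafy haploid plants of a moss, and 48 were higher in rehydrated gametophytes. The clones were chosen by these same measured values: a clone was kept when its mean log2 ratio to hydrated tissue differed by at least 0.6 between the slow-dried and the rehydrated arrays, and by no more than 0.8 between polysomal and total RNA. A clone was dropped when all 4 group means were at least 0.4 or all were at most -0.4. Of 186 unannotated clones past 0.6 either way, 46 were removed for the difference between RNA fractions and 35 for moving one way in all groups. Because these values chose the clones, the difference between the treatments is described below with no test of it.

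Each of 8 arrays set 1 treated sample against hydrated gametophytes, in 2 dyes that were exchanged between the 2 arrays of a group. Slow-dried plants had lost water for 24 h above a saturated sodium nitrite solution at 20 °C and 66% relative humidity, and were assayed as total RNA (2 arrays) and as polysomal RNA (2 arrays). Rapid-dried rehydrated plants had been dried over silica gel and rewetted for 2 h, and were also assayed as total RNA (2 arrays) and polysomal RNA (2 arrays). The hydrated plants in the other channel of every array had been kept wet for 48 h, as had all plants before treatment. Each array of a group had its own RNA preparation, a pool of many plants from several clumps, and total and polysomal RNA came from different samples. P-values below measure only the spread between these samples. The title of 1 rehydrated polysomal array names slow drying, but its source name and treatment text give rapid drying and rehydration, and it was used as such. No group was rapid-dried without rewetting or rewetted after slow drying, so the parts of drying rate and rewetting cannot be told apart. Nothing here tells fewer cells with a transcript from less of that transcript per cell.

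A moss of this kind loses nearly all its cell water when the air dries and resumes metabolism within hours of rewetting. During slow drying the ribosomes run off their messages before the tissue is dry, whereas rapid drying traps them, and much of the response then comes on rewetting. Polysomal RNA is the RNA recovered in the fraction that holds messages with several ribosomes attached. Whether the messages in that fraction of slow-dried tissue still carried ribosomes was not measured, and neither was translation. The clones came from a subtracted library made to hold desiccation-responsive messages, and therefore do not stand for the moss's genes at large. No role is given below to a clone that the files do not annotate.

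All levels below are log2 ratios of treated over hydrated signal after background correction and loess within the array, which sets the typical clone of an array at 0. A value below 0 is therefore a level below the typical clone of that array, and not in itself a loss from hydrated tissue. On this scale all 105 clones kept the sign that the choice gave them. The median difference, slow-dried minus rehydrated, was 0.67 over the 57 clones higher in slow-dried tissue, with a range of 0.08 to 1.58. Over the 48 clones higher in rehydrated tissue it was -0.79, with a range of -2.72 to -0.014, and over all 768 clones it was -0.0063. The largest differences on this scale were thus on the rehydrated side. On the scale of ribosomal protein controls, described below, the medians were 0.99 for the 57 and -0.46 for the 48.

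On the scale set by the typical clone, many clones were short of the limit that had admitted them. Of the 57, 32 were at least 0.6 apart, where 11.1% of all clones were. Of the 48, 37 were at least 0.6 apart, where 14.8% of all clones were. The 4 slow-dried arrays all lay above the 4 rehydrated arrays for 23 of the 57 (8.33% of all clones), and the 4 rehydrated arrays all lay above the 4 slow-dried arrays for 24 of the 48 (8.98% of all clones). Nothing is read from these counts, since the same contrast chose the clones. In the other 34 of 57 and 24 of 48 at least 1 array crossed over, so the label of a separating clone holds for their means and not for every array.

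**Figure D1:**
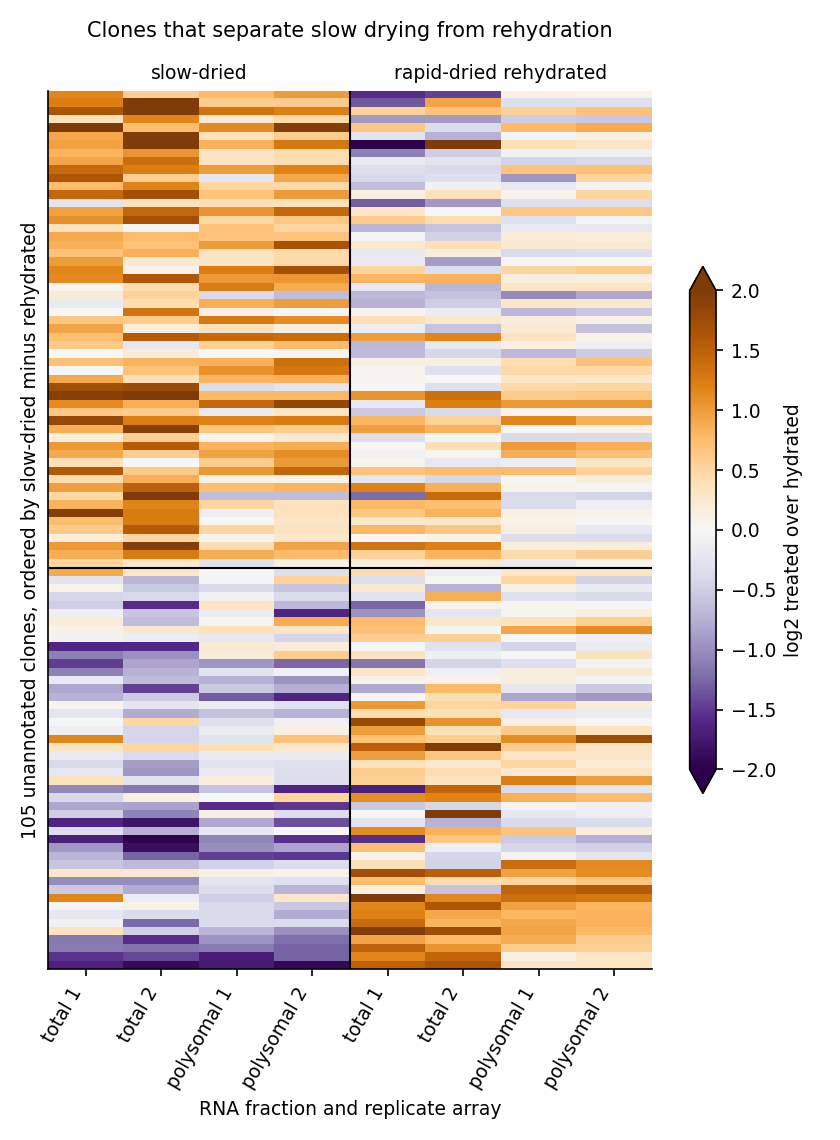
Log2 ratio of treated over hydrated signal of the 105 clones (rows, from the largest positive to the largest negative difference between treatments) on the 4 slow-dried arrays and the 4 rapid-dried rehydrated arrays (columns). The horizontal line divides the 57 clones higher in slow-dried tissue from the 48 higher in rehydrated tissue, and colours stop at -2 and 2; the lowest rows are purple on all slow-dried arrays and orange on the rehydrated ones, palest in rehydrated polysomal RNA.

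Set against the typical clone, the clones took different routes to their separation. With a mean of at least 0.4 called raised and a mean of at most -0.4 called lowered, 27 of the 57 were raised in slow-dried tissue and near 0 in rehydrated tissue. A further 15 were raised in both, and differed in degree, by 0.35 to 1.27. For 8 clones both means lay near 0, and 4 clones were near 0 in slow-dried and lowered in rehydrated tissue. USD-125, USD-187 and USD-27 were raised in slow-dried tissue and lowered in rehydrated tissue, by differences of 1.08 to 1.58, though against the ribosomal protein controls described below they stood above 0 in both. The most common form among the 57 (27 clones) was thus a level above the typical clone in slow-dried plants and near it in rapid-dried rehydrated plants.

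The 48 clones higher in rehydrated tissue divided otherwise. There were 14 lowered in slow-dried tissue and near 0 in rehydrated tissue, and another 14 near 0 in slow-dried and raised in rehydrated tissue. A group of 11 was lowered in slow-dried and raised in rehydrated tissue, namely USD-698, USD-668, USD-608, USD-526, USD-467, USD-523, USD-621, USD-389, USD-447, USD-534 and USD-618. Their differences ran from -2.72 to -0.93 with a median of -1.51. Against those controls 45 of the 48 stood above 0 in slow-dried tissue too, so lowered is said here of the typical clone alone. The remaining 9 were near 0 in both (6 clones) or lowered in both (USD-606, USD-497 and USD-398). Lowered in slow-dried and raised in rehydrated tissue were thus 11 of 48 on this side, and the reverse was met in 3 of 57 on the other. These counts depend on the limits for raised and lowered, and rest on the same values as the choice. They leave out clones of either side whose means lay on opposite sides of 0 but fell short of a limit. Examples are USD-203 (0.76 in slow-dried, -0.32 in rehydrated tissue) and USD-581 (-0.46 in slow-dried, 0.32 in rehydrated tissue).

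**Figure D2:**
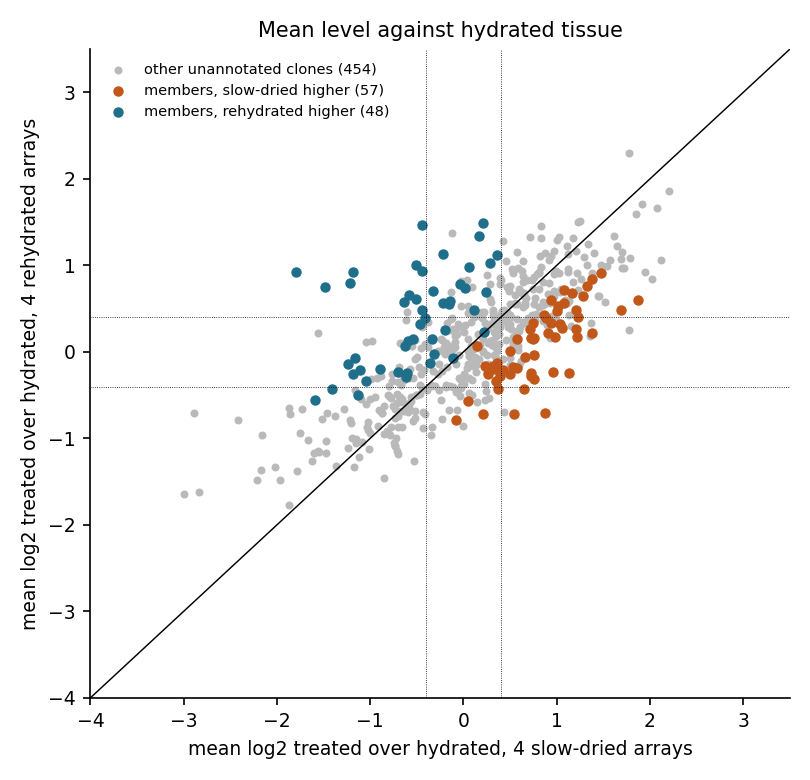
Mean log2 ratio of treated over hydrated signal on the 4 slow-dried arrays (x axis) against the mean on the 4 rehydrated arrays (y axis), 1 point per unannotated clone; the solid line marks equal means and dotted lines mark -0.4 and 0.4. The 11 clones lowered in slow-dried and raised in rehydrated tissue lie in the upper left field, and the 3 of the opposite kind lie in the lower right field.

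USD-698 had the largest difference of the 105. Its log2 ratios were -1.65 and -1.88 in slow-dried total RNA and -1.72 and -1.92 in slow-dried polysomal RNA, against 1.49 and 1.64 in rehydrated total RNA and 0.26 and 0.32 in rehydrated polysomal RNA. Every slow-dried array lay below every rehydrated array, with a gap of 1.91. The difference was -2.72 ± 0.14 (SE, 4 arrays against 4), or 6.57-fold higher in rehydrated than in slow-dried tissue relative to hydrated tissue. The net signals behind the total RNA values were 5459 and 3969 in the slow-dried channel, where the hydrated channel of the same arrays had 5497 and 6059. In the rehydrated channel they were 16903 and 13946, where the hydrated channel had 2217 and 1969. In slow-dried polysomal RNA they were 15195 and 23043, where the hydrated channel had 40461 and 23717. In rehydrated polysomal RNA they were 30968 and 38504, where the hydrated channel had 44516 and 19641. Before normalisation the slow-dried signal was thus close to that of hydrated tissue on 1 array of each fraction and below it on the other. The rehydrated polysomal signal was below that of hydrated tissue on 1 array and above it on the other.

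USD-668 followed the same course. It had -1.54 and -1.43 in slow-dried total RNA and -1.69 and -1.28 in slow-dried polysomal RNA, against 1.16 and 1.45 in rehydrated total RNA and 0.12 and 0.29 in rehydrated polysomal RNA. The difference was -2.24 ± 0.14 (SE), and the treatments did not overlap. USD-698 and USD-668 were the clones whose rehydrated polysomal values lay nearest to 0 among the 4 largest of this side, so that their separation was larger in total RNA (-3.33 and -2.79) than in polysomal RNA (-2.10 and -1.69). The test of that dependence on the RNA fraction is given below, and neither passed it. All 16 channels of both clones lay well above background.

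USD-608 and USD-526 were lowered in slow-dried tissue to a like extent in both fractions. USD-608 had -1.14, -1.18, -1.14 and -1.28 on the slow-dried arrays (total, total, polysomal, polysomal), against 1.50, 1.05, 0.59 and 0.56 on the rehydrated arrays in that order. USD-526 had -1.14, -1.57, -0.96 and -1.21 on the slow-dried arrays, against 0.95, 0.77, 0.88 and 0.59 on the rehydrated arrays. Neither clone's treatments overlapped, and the differences were -2.11 ± 0.15 and -2.02 ± 0.13 (SE), or 4.31-fold and 4.04-fold higher in rehydrated tissue. For both, the hydrated channel of rehydrated total RNA was well above background on 1 of the 2 arrays. The treated channel of slow-dried total RNA of USD-526 was also well above background on only 1 of the 2 arrays.

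USD-467, USD-574 and USD-307 had slow-dried means nearer to the typical clone, at -0.44, -0.22 and 0.17. USD-467 had the highest rehydrated total RNA values of the 12 largest, at 2.39 and 1.75, and 0.95 and 0.79 in rehydrated polysomal RNA. Its slow-dried values were 0.36 and -0.47 in total and -0.69 and -0.97 in polysomal RNA, all below the rehydrated ones. USD-574 had -0.02, 0.08, -0.39 and -0.55 on the slow-dried arrays, against 1.16, 1.62, 0.96 and 0.81 on the rehydrated arrays. USD-307, which had slow-dried values of 0.28, 0.22, 0.10 and 0.07 against rehydrated values of 1.73, 1.52, 0.97 and 1.12, was the only clone of the 12 with all slow-dried values above 0. The differences of these clones were -1.91 ± 0.17, -1.36 ± 0.16 and -1.17 ± 0.14 (SE). The other 5 of the 12 largest, USD-523, USD-621, USD-447, USD-436 and USD-449, had differences of -1.51 to -1.09. USD-436 and USD-449 were set apart by low slow-dried values, since their rehydrated means of -0.14 and -0.07 lay near 0; for USD-449 the hydrated channel of slow-dried total RNA was not well above background on either array.

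Among the clones higher in slow-dried tissue, USD-125 had the largest difference, 1.58 ± 0.18 (SE), or 2.99-fold. It had 1.16 and 0.57 in slow-dried total RNA and 0.76 and 1.00 in slow-dried polysomal RNA, against -1.57 and -1.47 in rehydrated total RNA and 0.12 and 0.09 in rehydrated polysomal RNA. The slow-dried values were alike in both fractions, and the rehydrated values were low in total RNA and near 0 in polysomal RNA. The net signals in slow-dried total RNA were 9937 and 5021 where hydrated tissue had 1479 and 1467. On the rehydrated total arrays they were 673 and 1619 where hydrated tissue had 439 and 1683. Each of these rehydrated total channels was well above background on 1 array of the 2.

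USD-187 and USD-203 were above the typical clone on every slow-dried array and below it on every rehydrated array. USD-187 had 0.36, 1.16, 0.21 and 0.45 on the slow-dried arrays (total, total, polysomal, polysomal), against -0.93, -0.92, -0.49 and -0.53 on the rehydrated arrays. USD-203 had 0.93, 1.38, 0.32 and 0.41 on the slow-dried arrays, against -0.16, -0.26, -0.45 and -0.38 on the rehydrated arrays. Both were well above background in all 16 channels, and their differences were 1.26 ± 0.18 and 1.07 ± 0.15 (SE). USD-27, USD-169 and USD-73 shared this pattern of opposite sides on every array, which 5 of the 57 and 9 of all 768 clones showed. In the opposite sense, below the typical clone on every slow-dried array and above it on every rehydrated array, there were 11 of the 48 and 18 of all 768. The values behind these counts also chose the clones, and nothing is read from them.

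USD-193 was above the typical clone in both treatments, and USD-94 in polysomal RNA of both. USD-193 had 1.64 and 3.31 in slow-dried total RNA and 1.31 and 1.22 in slow-dried polysomal RNA, against 0.52 and 0.67 in rehydrated total RNA and 0.53 and 0.69 in rehydrated polysomal RNA. Its value of 3.31 was the highest of any array in the 12 largest and came from an array pair in which the hydrated channel was well above background on 1 array. USD-94 had 1.43, 1.25, 0.98 and 1.19 on the slow-dried arrays, against -0.31 and -0.40 in rehydrated total RNA and 0.68 and 0.71 in rehydrated polysomal RNA. The rehydrated values of USD-94 thus lay below the typical clone in total RNA and above it in polysomal RNA. The other 6 of the 12 largest (USD-226, USD-59, USD-13, USD-306, USD-77 and USD-169) had differences of 0.80 to 1.19. For USD-226 the hydrated channel of rehydrated total RNA was not well above background on either array.

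**Figure D3:**
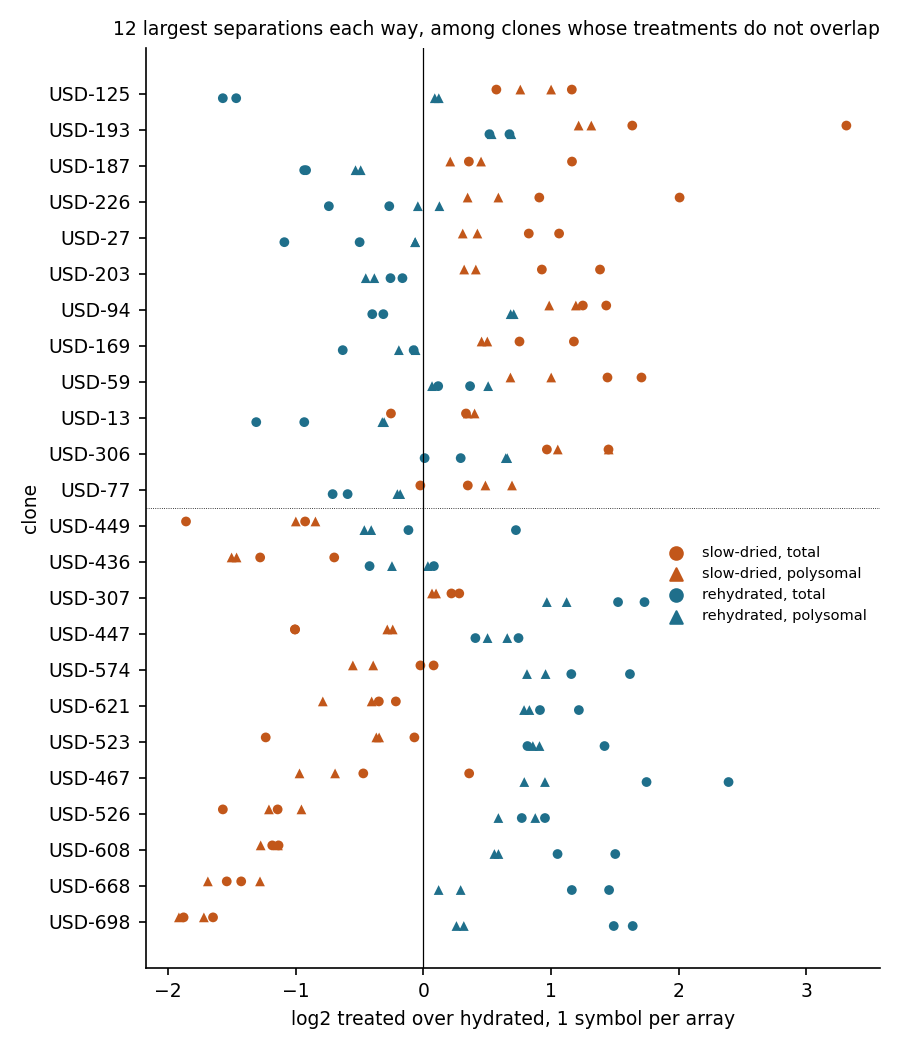
Log2 ratio of treated over hydrated signal on each array (x axis) for the 12 clones in each direction with the largest difference among those whose slow-dried and rehydrated arrays did not overlap. Circles are total RNA, triangles polysomal RNA, and 0 is the typical clone; the rehydrated circles of USD-698 and USD-668 lie beyond 1 and their triangles below 0.4.

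Some clones with a large mean difference had arrays of 1 group that differed widely. In USD-122 the rehydrated total arrays stood at -2.03 and 2.20, and the slow-dried arrays at 0.97, 2.38, 0.86 and 1.30. In USD-284 the rehydrated total arrays stood at -1.34 and 0.94, and in USD-686 at -1.69 and 1.47. The hydrated channel of rehydrated total RNA was not well above background on either array in USD-284 and USD-686, and on 1 of the 2 arrays in USD-122, whose hydrated channel in slow-dried total RNA was not so on either array. In 11 of the 105 the rehydrated total arrays lay more than 1 apart, as they did in 86 of all 768 clones (11.2%). In each of these 11 the treatments overlapped. These 3 clones are named for that spread, after their values were seen. The median distance between the arrays of a group over the 105 clones was 0.46 in slow-dried total RNA, 0.21 in slow-dried polysomal RNA, 0.30 in rehydrated total RNA and 0.12 in rehydrated polysomal RNA. Over all 768 clones these distances were 0.40, 0.21, 0.30 and 0.13, so total RNA was the less repeatable fraction in the 105 clones as on the whole array. The hydrated channel of 1 rehydrated total array stood apart: 42.4% of all clones and 39 of the 105 were well above background there, against 66 to 99 of the 105 on the other arrays. Of the 12 largest in each direction, 9 on the slow-dried side and 9 on the rehydrated side were short of that limit in the hydrated channel on at least 1 of the rehydrated total arrays.

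The 2 directions differed in how well their clones could be measured. All 16 channels were well above background for 27 of the 57 clones higher in slow-dried tissue (47.4%) and for 6 of the 48 higher in rehydrated tissue (12.5%), where 294 of all 768 clones (38.3%) reached it. A channel short of the limit on both arrays of a group was met in 12 of the 57 and 15 of the 48, and in 189 of all 768 clones. The dimmest in the hydrated channel were USD-738, USD-749 and USD-516, with 2, 4 and 1 of 16 channels above background, and their values of -0.75, 0.67 and -0.38 rest on signals near the limit. The brightest in the hydrated channel were USD-668, USD-698 and USD-651, and no clone of the 105 was saturated. USD-651 had -0.0030, 1.32, 0.11 and -0.02 on the slow-dried arrays, against 0.03, -0.15, -0.68 and -0.55 on the rehydrated arrays, so 1 slow-dried total array stood far above the rest behind its difference of 0.69 ± 0.27 (SE).

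The choice bounded the difference between RNA fractions averaged over the treatments, but it set no limit on how far the separation itself differed between fractions. It was not wholly free of that difference. Clones with every group mean past a limit on the same side were dropped, and that step used each fraction within each treatment. The counts of dependence on the fraction in this paragraph are therefore not fully independent of the choice. The separation had the same sign in both fractions in 93 of the 105 clones and in 482 of all 768. A limit on its mean over the fractions favours the same sign by construction. For the 57 higher in slow-dried tissue its median was 0.81 in total RNA and 0.60 in polysomal RNA. For the 48 higher in rehydrated tissue it was -1.05 in total RNA and -0.65 in polysomal RNA. It was larger in total than in polysomal RNA for 39 of the 57 and 34 of the 48, and also for 478 of all 768 clones. In limma's test of this dependence, with Benjamini-Hochberg adjustment over all 768 clones, 1 of the 105 was called (0.26% of all clones, which is 2). At an unadjusted p under 0.05 there were 25 of the 105, where 19.1% of all clones were. The separation of nearly all the clones was thus not shown to depend on the RNA fraction, and a missing call does not show that the fractions were alike.

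The called clone was USD-74. It had 1.72 and 1.77 in slow-dried total RNA and -0.34 and -0.24 in slow-dried polysomal RNA, against 0.00 and -0.30 in rehydrated total RNA and 0.45 and 0.49 in rehydrated polysomal RNA. In total RNA the slow-dried arrays lay above the rehydrated ones, by 1.90, and in polysomal RNA they lay below them, by a difference of -0.76. The polysomal separation minus the total one was -2.66 ± 0.29 (SE, limma adjusted p = 0.046). Its hydrated channel in slow-dried total RNA was not well above background on either array, so the slow-dried total values have only a bound on that side and no fold is given. The call was lost on the control scale described below (limma adjusted p = 0.0506), under the processing of the choosing rule (limma adjusted p = 0.0914), in the authors' deposited table of ratios (limma adjusted p = 0.559) and on leaving out any single array, with limma adjusted p up to 0.425, except the rehydrated total array with the treated RNA in Cy3 (limma adjusted p = 0.0262 without it). The other called clone on the array, USD-135, was not among the 105 and went the other way (2.18, limma adjusted p = 0.0491).

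**Figure D4:**
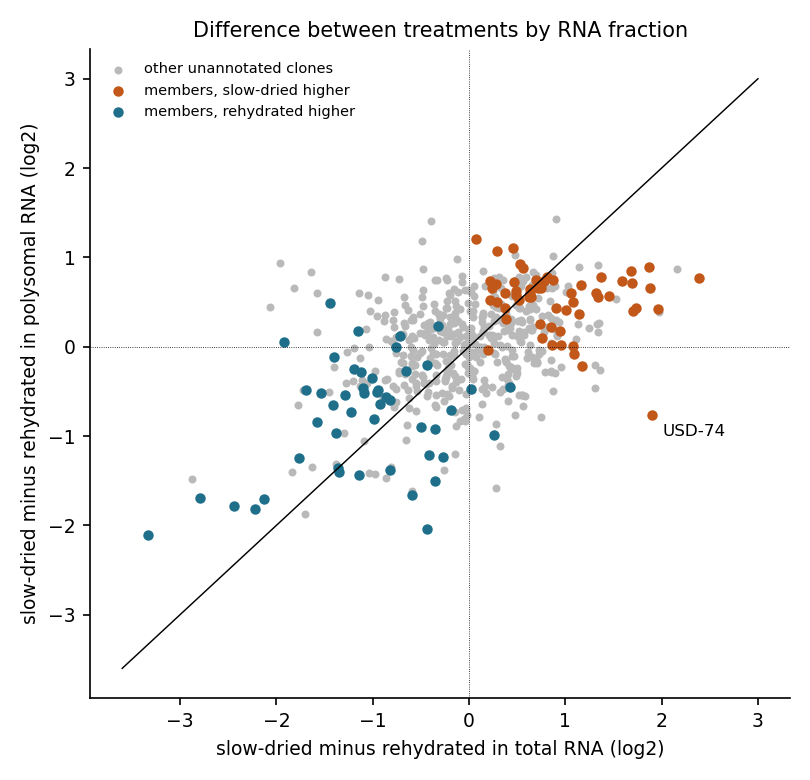
Slow-dried minus rehydrated difference in total RNA (x axis) against that in polysomal RNA (y axis), both as log2, 1 point per unannotated clone; the diagonal marks equal differences. Most of the 105 clones lie in the lower left or upper right field, on the total RNA side of the diagonal for 73 of them, and USD-74 lies alone at 1.90 and -0.76.

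The exchange of dyes left no called effect on these clones. In limma's test of the dye term, 0 of the 105 and 0 of the 768 clones (0.0%) passed an adjusted p of 0.05, and the smallest adjusted p was 0.791. At an unadjusted p under 0.05 there were 5 of the 105 and 43 of the 768 (5.6%).

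On a scale set by 4 ribosomal protein control clones instead of by the typical clone, the levels shift. The files and sample descriptions name them S14, S16, L17 and S3, whereas the design text has L23 and L15 in place of L17 and S3, and the conflict is unsettled. The typical clone stood above the controls by 1.49 in slow-dried total RNA, 1.41 in slow-dried polysomal RNA, 1.19 in rehydrated total RNA and 1.05 in rehydrated polysomal RNA, which adds 0.33 to every slow-dried minus rehydrated difference. All 57 clones higher in slow-dried tissue were then above 0 in both treatments, with a median difference of 0.99. Of the 48 higher in rehydrated tissue, 45 were above 0 in slow-dried tissue and all 48 in rehydrated tissue. The 3 below 0 in slow-dried tissue were USD-698 (-0.34), USD-606 (-0.14) and USD-668 (-0.04). The median difference of the 48 was -0.46, and 43 kept their sign. Called lowered against the typical clone, these clones were thus mostly not lowered against the controls. The controls themselves differed between treatments and from each other. Against the typical clone, slow-dried minus rehydrated was -0.73 for L17, -0.45 for S14, -0.18 for S3 and 0.05 for S16. In the authors' deposited table, whose ratios use such a control scale, USD-698 had 0.92 and 1.22 in slow-dried total RNA and 0.63 and 0.68 in slow-dried polysomal RNA, against 6.50 and 7.49 in rehydrated total RNA and 2.17 and 2.52 in rehydrated polysomal RNA.

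The clone numbers, which the choice did not use, divided the directions. Of the 57 clones higher in slow-dried tissue, 49 (86.0%) were numbered 1 to 384, and of the 48 higher in rehydrated tissue, 44 (91.7%) were numbered 385 to 768. The unannotated clones as a whole were numbered 1 to 384 in 263 cases (47.1%) and 385 to 768 in 295 cases (52.9%). The arrays were printed from 2 plates of 384 wells, but the files do not tie a number to a plate. Outside the 105, the median slow-dried minus rehydrated difference was 0.09 over 210 other unannotated clones of the low numbers. It was -0.06 over 243 of the high numbers. These medians are small in part by construction, since the choice took out clones with large differences. Detection also differed between low and high numbers. In all 16 channels, 50.2% of unannotated clones of the low numbers and 24.7% of those of the high numbers were well above background. Over all unannotated clones the median was 0.22 for the low numbers and -0.15 for the high numbers. When the clones short of background on any array were left out, the medians were 0.11 and -0.12. The division was not particular to unannotated clones. Over all numbered clones the medians were 0.14 for the low numbers and -0.16 for the high numbers. Among numbered annotated clones past the same thresholds, 69.2% of those higher in slow-dried tissue had low numbers. Of those higher in rehydrated tissue, 88.9% had high numbers. The division at 384 was looked at after the values were seen, and it was given no test; the part of plate, print order or library in it was not tested.

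**Figure D5:**
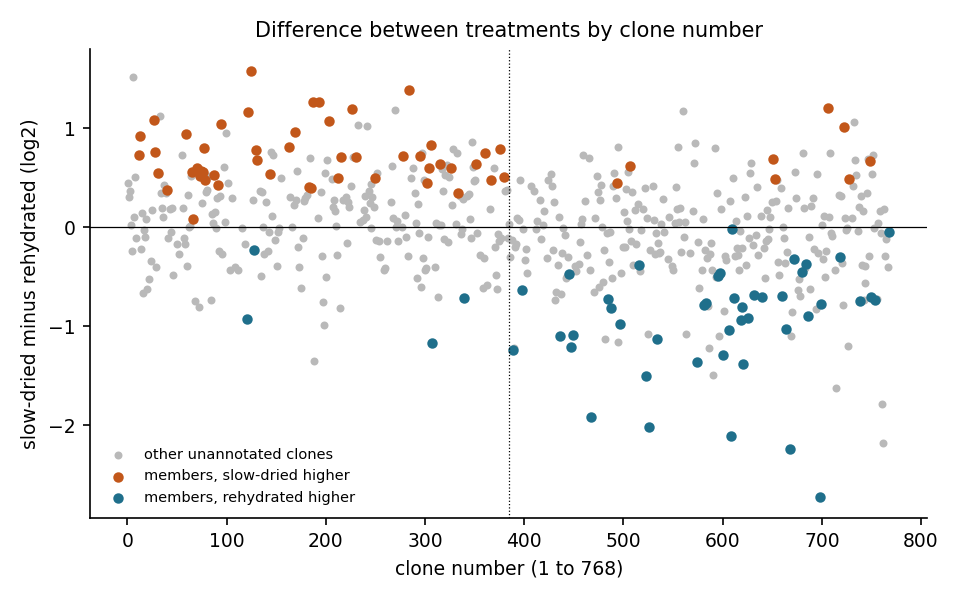
Slow-dried minus rehydrated difference (log2, y axis) of the unannotated clones by clone number (x axis); the dotted line lies between 384 and 385. Of the clones higher in slow-dried tissue 49 of 57 lie left of the line, and of those higher in rehydrated tissue 44 of 48 lie right of it.

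The same thresholds applied without regard to annotation took 137 of the 768 clones (17.8%), of which 32 carried an annotation. Of these, 13 were higher in slow-dried and 19 in rehydrated tissue. Those with the largest slow-dried excess were phenylalanine ammonia-lyase (USD-491, 0.97), the entry enzyme of phenylpropanoid synthesis, an alpha/beta fold protein (USD-236, 0.95), glycolate oxidase (USD-422, 0.95), an enzyme of photorespiration, the clone annotated at5g45690 (USD-394, 0.89) and dehydroascorbate reductase (USD-154, 0.86), which recycles the antioxidant ascorbate. Those with the largest rehydrated excess were a hypothetical protein (USD-464, -1.53), the peptidylprolyl isomerase rof1 (USD-630, -1.46), the chaperone Hsp70 (USD-511, -1.40), an H-type thioredoxin (USD-658, -1.39) and trehalase (USD-578, -1.34), which splits trehalose into glucose. USD-125, USD-193, USD-187, USD-226, USD-27, USD-203 and USD-94 of the 12 largest on the slow-dried side, and USD-698, USD-668, USD-608, USD-526 and USD-467 on the rehydrated side, had larger differences than any of these annotated clones in their direction. In USD-236, USD-422 and USD-394 the treatments overlapped, whereas the 12 largest had been picked for no overlap. The hydrated channel was not well above background on either array in slow-dried total RNA for USD-422, or in rehydrated total RNA for USD-394. Nothing in the files links an unannotated clone to an annotated one.

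At the threshold of 0.6, on the scale that chose the clones, USD-722 (0.604), USD-212 (0.608) and USD-366 (0.608) were just inside, and USD-752 (0.599), USD-476 (0.599) and USD-247 (0.597) just outside. On the negative side USD-445 (-0.605), USD-339 (-0.617) and USD-128 (-0.618) were just inside, and USD-198 (-0.597), USD-677 (-0.593) and USD-373 (-0.587) just outside.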

How the data were processed

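The deposited scanner files give, per the file headers, the intensity of each spot and of its local background in each channel, in arbitrary units with no normalisation, and a spot flag of another kind (a score of 0 to 3) whose meaning is not given in the sources used here. The authors also deposited a table of ratios of treated to hydrated signal, with the spots of a clone combined, used as an alternative. For the scanner and the image software the entry is the same: not given in the sources used here. No column without a sample (0) was used.

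The clones were chosen by the rule in the report from mean signal minus background median (floor 50), the log2 ratio of treated over hydrated, the median of 3 spots and subtraction of the array median. The members and lists were chosen with earlier results of these data known. Values in the report come from normexp background correction (offset 50), global loess (span 0.3, 4 iterations) and the mean of 3 spots. One model with 4 group coefficients and a dye term was fitted over all 8 arrays and 768 clones with limma 3.58.1 in R 4.3.3 (3 residual degrees of freedom, 6.41 in total), with Benjamini-Hochberg adjustment over all 768 clones at 0.05, and was tested on simulated data. Errors are standard errors of that model. A channel counted as well above background at a mean signal over the local background median plus 2 background SD. With arrays there is no read depth, and precision is limited by how many there are. No tissue marker list was tested.

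Clones named were the 12 in each direction with the largest difference among those whose treatments did not overlap, those called for dependence on RNA fraction, 3 on each side of each threshold, the 3 brightest and 3 dimmest in the hydrated channel, and 5 annotated clones in each direction, 1 per annotation. Alternatives were the choosing rule's own processing, the control scale, normexp without loess, the authors' ratios, another way of combining spots, a filter on dim clones, leaving out each array, and a fit without the dye term. Leaving out flagged spots was added after seeing the data.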

Additional observations from a re-analysis of the deposited data

Results flagged for a closer look

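In USD-74 the separation differed between RNA fractions: polysomal minus total was -2.66 in limma's test, with an adjusted p of 0.046, and its hydrated channel in slow-dried total RNA was not well above background on either array. The call was lost under the rule's own processing, on the control scale, in the authors' ratios and without any single array but 1.

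On opposite sides of the typical clone in the treatments on every array lay 5 clones higher in slow-dried and 11 higher in rehydrated tissue, and this difference was not tested because it chose them. Among the 12 largest in each direction, above it in slow-dried and below it in rehydrated tissue were USD-187 (slow-dried minus rehydrated 1.26), USD-27 (1.08), USD-203 (1.07) and USD-169 (0.96). Below it in slow-dried and above it in rehydrated tissue were USD-698 (-2.72), USD-668 (-2.24), USD-608 (-2.11), USD-526 (-2.02), USD-523 (-1.51), USD-621 (-1.38) and USD-447 (-1.21). Outside the 12 largest were USD-73 (0.52), USD-664 (-1.03), USD-620 (-0.80), USD-581 (-0.78) and USD-699 (-0.78).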

How the results depend on the processing

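The choosing rule took 105 clones, against 40 on the control scale and 33 among clones above background on every array. With normexp and loess it took 84, of which 60 were among the 105 (57.1%), and on the control scale 14 were shared. At least 0.6 apart were 32 of the 57 clones higher in slow-dried tissue, against 57 under the rule's own processing, 56 on the control scale, 50 with normexp but no loess and 15 with the filter on dim clones. Their median of 0.67 was 0.99 on the control scale. Of the 48 clones higher in rehydrated tissue, 37 were at least 0.6 apart, against 20 on the control scale and 6 with the filter. The filter left only 27 of the 57 clones and 6 of the 48. The median of the 48, -0.79, was -0.46 on the control scale and -1.35 in the authors' ratios. With the filter it was -1.08, over the 6 clones left. The control scale adds a constant to every difference by construction, and the cause of the other shifts was not tested. The 24 largest differences kept their sign in all 342 values from other settings. These clones had been picked for large differences with no overlap of arrays, so that outcome was largely fixed by the choice. Nothing is read from it.

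Leaving out 1 array at a time gave 94 to 122 clones by the rule, 31 to 36 and 32 to 38 clones at least 0.6 apart, and medians of 0.63 to 0.68 and -0.91 to -0.76. The fraction test called 1 clone, against 0 under the rule's own processing, on the control scale and in the authors' ratios, 2 with normexp but no loess, with the filter and without the dye term, and 0 to 2 with an array left out, where the lone array of a group is assumed to vary like the others. USD-74 had an adjusted p of 0.0914 under the rule's own processing, 0.0506 on the control scale and 0.559 in the authors' ratios, and between 0.0086 and 0.0486 in the other settings with all arrays. The dye term called 0 clones throughout. No paired analysis was possible because the labels carry no replicate numbers. Above background in all channels were 33 of the 105 clones, and 294 of all 768.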
